A study of Mus musculus with 4 samples.

Results

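The genes described here are 42 genes of mitosis, from the cyclins and kinases that start it to the motors and scaffolds that divide the cell. They were taken from the deposited table by gene symbol, and 41 of them have a row under their symbol among the 11747 rows of the table. Racgap1, which encodes a GTPase-activating protein of the central spindle, has no row under its symbol and is not counted among the 41. The table covers RNA sequencing of 4 libraries, 2 per group, from mouse embryonic stem cells on the way to motor neurons. All cells came from the A172LoxP line and carry a transgene for a transcription factor that doxycycline switches on, so the controls hold the transgene as well. The cells grew as floating embryoid bodies and for 2 days had retinoic acid at 0.5 µM with purmorphamine at 1 µM, which activates the Sonic hedgehog pathway. They then received vehicle (libraries 1 and 7 of the table) or 2 µg/mL doxycycline (libraries 2 and 8) for another 2 to 3 days. Each library holds RNA from a whole mixed culture, and no label states that replicate libraries stem from different cultures.

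In mitosis the duplicated chromosomes are condensed, attached to a spindle of microtubules and pulled apart. Cdk1 bound to cyclin B starts the process, the spindle checkpoint holds it until every kinetochore is attached, and the anaphase-promoting complex (APC/C) ends it by marking cyclin B and securin for destruction. Many of the messenger RNAs of this machinery are made mainly in the G2 and M phases, so in the developing spinal cord they mark dividing progenitors, while motor neurons and interneurons leave the cell cycle when they are born. The promoters of many such genes carry a cell cycle genes homology region (CHR), which is bound by the MuvB core of the DREAM and B-Myb complexes, and a CCAAT box, which is bound by NF-Y.

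Promoters are shown for the 5 mitosis genes with the smallest p in the comparison of the groups among those with a listed promoter, because both motifs were frequent in the promoters of these genes. The sequences come from RefSeq on GRCm38.p6, a build that differs from the mm9 of the expression table, and run from 120 bases before to 30 bases after an annotated start site. Capitals mark a CHR (TTTGAA or TTCGAA on either strand) or a CCAAT box (CCAAT, or ATTGG for the other strand).
Prc1 (chr7:80294331-80294480, plus strand): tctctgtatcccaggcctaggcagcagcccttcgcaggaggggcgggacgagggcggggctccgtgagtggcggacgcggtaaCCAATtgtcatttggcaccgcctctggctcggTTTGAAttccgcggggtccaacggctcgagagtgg
Anln (chr9:22389177-22389326, minus strand): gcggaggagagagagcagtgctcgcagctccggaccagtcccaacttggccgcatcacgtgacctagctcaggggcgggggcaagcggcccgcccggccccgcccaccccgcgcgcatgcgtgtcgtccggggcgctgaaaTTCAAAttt
Kif2c (chr4:117178743-117178892, minus strand): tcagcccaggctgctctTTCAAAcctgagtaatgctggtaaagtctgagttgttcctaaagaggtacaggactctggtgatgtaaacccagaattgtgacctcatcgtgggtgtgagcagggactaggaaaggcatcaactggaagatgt
Ect2 (chr3:27153849-27153998, minus strand): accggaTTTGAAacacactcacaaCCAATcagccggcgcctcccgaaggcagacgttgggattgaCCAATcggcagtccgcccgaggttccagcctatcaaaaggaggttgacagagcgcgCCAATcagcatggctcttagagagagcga
Bub1 (chr2:127831830-127831979, minus strand): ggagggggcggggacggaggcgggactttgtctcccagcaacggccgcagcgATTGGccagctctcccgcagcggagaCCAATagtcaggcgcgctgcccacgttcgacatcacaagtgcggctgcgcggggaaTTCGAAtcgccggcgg
The promoter of Cdc20, the gene with the smallest change, is added for contrast and was chosen after its values were seen.
Cdc20 (chr4:118437314-118437463, minus strand): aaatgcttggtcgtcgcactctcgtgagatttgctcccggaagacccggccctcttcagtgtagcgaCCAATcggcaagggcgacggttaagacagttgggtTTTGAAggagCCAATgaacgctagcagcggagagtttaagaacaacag

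In Prc1 the CHR begins 5 bases before the start site and the CCAAT box 37 bases before it, counted from the first base of the motif on the printed strand with the start site at 0. In Bub1 the CHR begins 14 bases after the start site, with CCAAT boxes 42 and 68 bases before it. Cdc20 holds a CHR 18 bases before the start site between CCAAT boxes 53 and 8 bases before it. The stretch of Kif2c shows a CHR 103 bases before the start site and no CCAAT box, and that of Anln a CHR 21 bases after it and no CCAAT box. Promoters of 300 bases, 250 before and 50 after the start, were listed for 35 of the 41 genes, 38 promoters in all. A CHR was present in 29 of the 38, or 76.3%, against 13.0% of the 10836 promoters of all genes listed in the expression table. Between 60 bases before and 50 bases after the start it was present in 68.4% of the mitosis promoters and 3.80% of all listed. A CCAAT box stood in 76.3% against 38.0%, and both motifs in 68.4% against 5.34%. A CHR and a CCAAT box shared a base in 1 of the 38 promoters. E2F sites, searched as TTTCCCGC, TTTGGCGC, TTTCGCGC and TTTGCCGC on both strands, were found in 5.26% of the mitosis promoters against 4.10% of all listed and 31.7% of the 41 promoters of DNA replication genes. These are matches of letters in a fixed window, and binding was not measured.

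**Figure D1:**
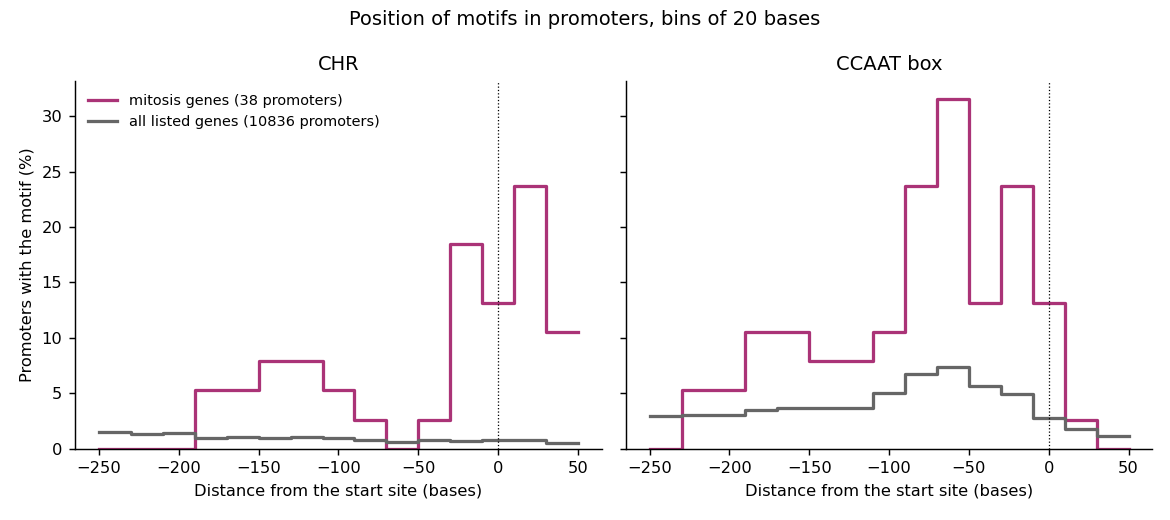
Share of promoters (%) with a CHR (left) or a CCAAT box (right) that begins in each bin of 20 bases, by distance from the start site in bases, for 38 promoters of mitosis genes and 10836 promoters of all listed genes. The CHR share of the mitosis promoters is highest close to the start site, 23.7% between 10 and 30 bases after it, and the CCAAT share is highest 70 to 50 bases before it, at 31.6%.

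All 41 mitosis genes had a higher mean with doxycycline than without, by small amounts. Prc1, which encodes the protein that bundles the microtubules of the central spindle, was the 1 gene that passed the test. Changes are differences of log2(normalized read count + 1), with minus without doxycycline, and the test is limma across all 11747 rows, with p adjusted by Benjamini-Hochberg and called below 0.05. The normalized read count is not divided by gene length. Of the 41 genes 1 rose and 0 fell in this test, where 2.37% of all genes were called, 0.579% higher and 1.79% lower. The changes ran from 0.08 to 0.61 with a median of 0.28, beside a median of 0.00236 over all genes, and the 50.6% of all genes with a change above 0 compares with 41 of 41. At an unadjusted p under 0.05, 28 of the 41 were higher and 0 were lower, against 9.58% and 11.5% of all genes. In 35 of the 41 both libraries with doxycycline lay above both without, which held for 26.7% of all genes. Leaving out library 1 moved the change of 20 of the 41 genes by over 1.5 times, and leaving out library 7, 2 or 8 that of 9, 5 or 10 genes. Without library 1 the median was 0.20. The members were chosen with earlier results of these data known, so these counts describe the list and no test of the list is given. The share of the 41 genes in all normalized counts was 0.444% and 0.496% in the controls (library 1, then 7) and 0.557% and 0.594% with doxycycline (library 2, then 8). In bulk RNA, more cells of a type and more RNA per cell cannot be told apart.

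**Figure D2:**
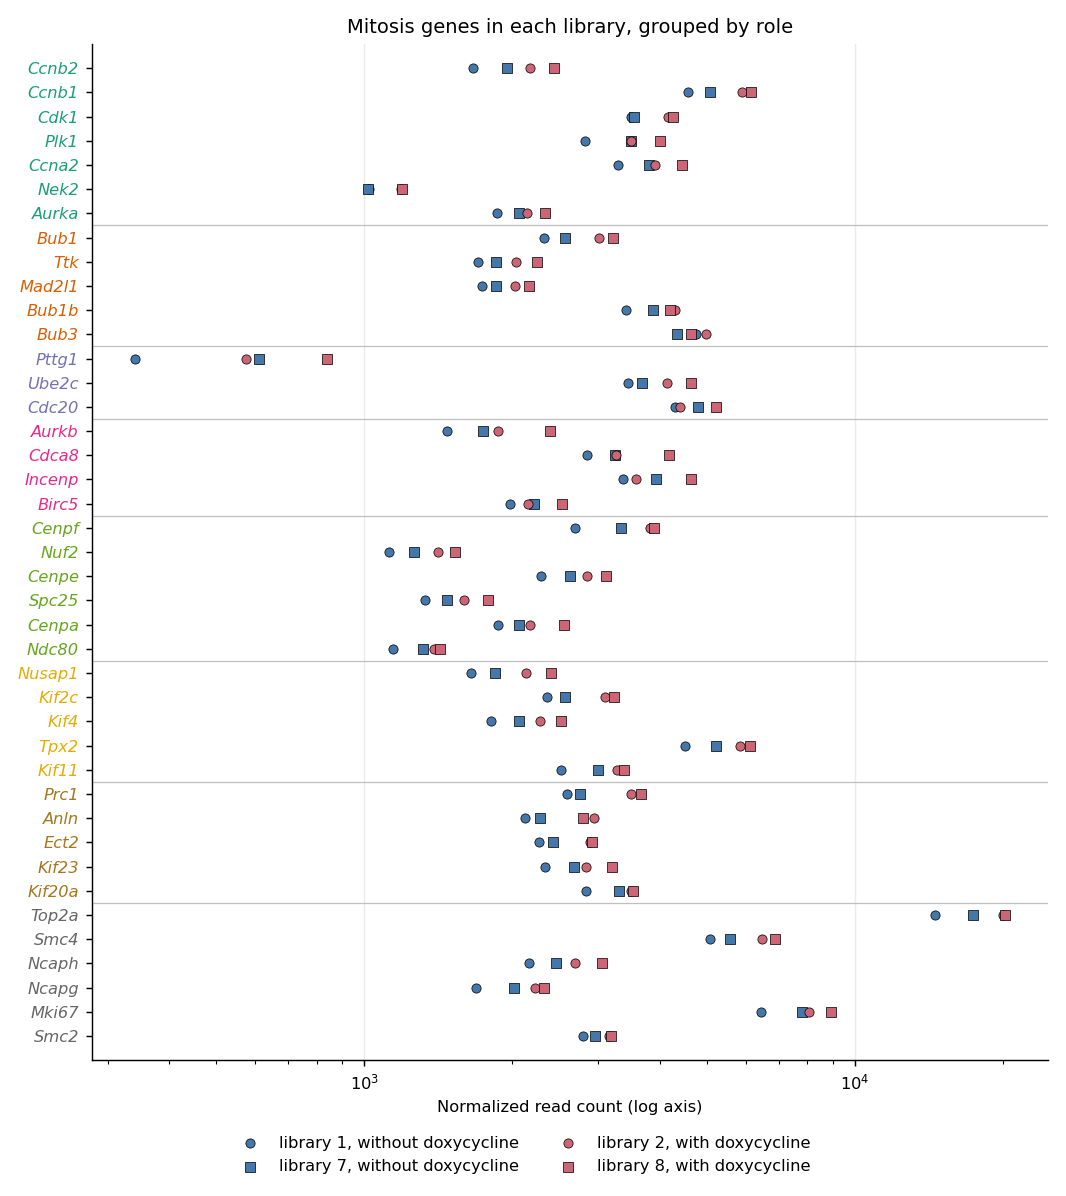
Normalized read count (log axis) of each of the 41 mitosis genes in the 4 libraries, grouped by role and ordered within each role by change. In 35 rows both red symbols, with doxycycline, lie to the right of both blue ones, and the 6 exceptions are Plk1, Bub3, Pttg1, Cdc20, Incenp and Birc5.

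Kinases and cyclins that drive entry into mitosis form the first group, with 7 genes. None passed the limma test (0 of 7 over all genes, 4 of 7 at an unadjusted p under 0.05), and the median change was 0.25. Ccnb1, which encodes cyclin B1, was at 4579 and 5067 normalized counts without doxycycline and at 5883 and 6129 with it. The groups did not overlap, and the change was 0.32 ± 0.07 (SE; limma, adjusted p = 0.0898). Cdk1, the kinase that cyclin B activates, stood at 3499 and 3549 without and 4169 and 4264 with doxycycline, a change of 0.26 ± 0.06 (limma, adjusted p = 0.0930). Its libraries lay close together within each group. Ccnb2 had a change of 0.35 ± 0.11 and Ccna2, which encodes cyclin A2, one of 0.24 ± 0.10. Nek2, a kinase of centrosome separation, had nearly equal values within groups, 1025 and 1020.0 without and 1189.6 and 1193 with doxycycline. Plk1, the polo-like kinase of spindle assembly, was the gene of this group whose libraries overlapped, with 3494 in library 7 and 3493 in library 2. Aurka, a kinase of the spindle poles, had the smallest change of the group at 0.19 ± 0.09.

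Of the 5 spindle checkpoint genes, 0 passed over all genes and 4 had an unadjusted p under 0.05. Bub1, a checkpoint kinase of the kinetochore, measured 2325 and 2563 normalized counts in the controls and 3003 and 3219 with doxycycline, with no overlap and a change of 0.35 ± 0.08 (limma, adjusted p = 0.0892). Ttk, which encodes the checkpoint kinase Mps1, was at 1707 and 1859 without and at 2035 and 2252 with doxycycline (0.27 ± 0.09; limma, adjusted p = 0.170). The corresponding changes were 0.22 ± 0.08 for Bub1b, which encodes BubR1, and 0.22 ± 0.08 for Mad2l1, which encodes Mad2. Bub3, a WD-repeat partner of Bub1 and BubR1, differed least, with 4753 and 4331 against 4974 and 4632 and a change of 0.08 ± 0.08. The groups overlapped in that gene.

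The genes around the APC/C held both ends of the range. Pttg1, which encodes securin, the inhibitor of separase, had the largest change of the 41 genes and also the largest error, 0.61 ± 0.31 (limma, adjusted p = 0.324). Its values were 341 and 611 normalized counts without doxycycline and 575 and 841 with it, so library 7 lay above library 2. The change was 0.19 without library 1, below the 0.38 of Prc1 in the same fit, 1.02 without library 7 (limma, adjusted p = 0.0366) and 0.33 without library 8. Cdc20, which activates the APC/C in mitosis, had the smallest change, 0.08 ± 0.10, with 4305 and 4797 without and 4407 and 5213 with doxycycline. Here the groups overlapped too, and without library 1 the value was -0.00127 and without library 8 it was -0.044, while it was 0.15 without library 7 and 0.20 without library 2. Ube2c, the ubiquitin-conjugating enzyme of the APC/C, was at 3452 and 3688 without and 4132 and 4628 with doxycycline, without overlap (0.29 ± 0.08; limma, adjusted p = 0.129).

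The chromosomal passenger complex, which corrects wrong attachments and later moves to the midzone, is encoded by 4 of the genes, and 0 passed over all genes. Aurkb, its kinase, was at 1476 and 1747 normalized counts without and 1873 and 2397 with doxycycline, the third largest change at 0.40 ± 0.14 (limma, adjusted p = 0.194). Cdca8, which encodes borealin, was at 2845 and 3250.1 without and 3259 and 4174 with doxycycline (0.28 ± 0.13; limma, adjusted p = 0.301). In both genes library 8 stood well above the others, and in Cdca8 libraries 7 and 2 were nearly level. Without library 8 the change of Aurkb was 0.22 and that of Cdca8 0.10, and the latter was 0.18 without library 1 and 0.46 without library 2. Birc5, which encodes survivin, and the scaffold gene Incenp had changes of 0.16 ± 0.10 and 0.16 ± 0.14 and overlapping groups. Without library 8 the value of Incenp was -0.023.

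Both libraries with doxycycline lay above both without in all 6 centromere and kinetochore genes, against 26.7% of all genes. Their median change was 0.27, with 0 calls over all genes and 5 unadjusted p under 0.05. Cenpf, a large kinetochore protein that is abundant in G2, was at 2683 and 3329.5 normalized counts without and 3821 and 3898 with doxycycline, a change of 0.37 ± 0.11 (limma, adjusted p = 0.146). Library 1 was the lowest in this gene, and the change was 0.21 without it and 0.52 without library 7, where the gene was called (limma, adjusted p = 0.0277). Nuf2, a subunit of the Ndc80 complex that holds microtubules, was at 1124 and 1265 without and 1414 and 1535 with doxycycline (0.30 ± 0.09; limma, adjusted p = 0.154). Ndc80 and Spc25, which encode further subunits, had changes of 0.20 ± 0.09 and 0.27 ± 0.09, the kinetochore motor gene Cenpe one of 0.28 ± 0.09, and Cenpa, the centromeric histone H3 variant, one of 0.26 ± 0.10. Spc24, a subunit gene of the same complex that is not among the 42, had a change of 0.11 ± 0.09 and overlapping groups.

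Motors and microtubule proteins of the spindle were alike in size of change, from 0.28 to 0.37 over 5 genes. None passed over all genes (0 of 5), and all 5 had an unadjusted p under 0.05. In all 5 both libraries with doxycycline lay above both without, against 26.7% of all genes. Kif2c, the microtubule-depolymerizing kinesin MCAK, was at 2363 and 2564 normalized counts without and 3098 and 3234 with doxycycline (0.36 ± 0.07; limma, adjusted p = 0.0717). Nusap1, a microtubule-bundling protein, was at 1653 and 1844 without and 2132 and 2397 with doxycycline (0.37 ± 0.09; limma, adjusted p = 0.109). Tpx2, which activates Aurora A on the spindle, Kif4, a chromosome-bound kinesin, and Kif11, the kinesin that separates the poles, had changes of 0.30 ± 0.09, 0.31 ± 0.10 and 0.28 ± 0.10.

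Genes of the midzone and of cytokinesis included the 1 gene past the test and the gene with the next smallest p. Prc1 rose from 2595 and 2748 normalized counts without doxycycline to 3496 and 3668 with it, by 0.42 ± 0.07 or 1.34-fold (limma, adjusted p = 0.0458). Libraries within a group differed far less than the groups did. Its call was close to the threshold and was lost without library 1, 2 or 8 (limma, adjusted p = 0.171, 0.109 and 0.204) and kept without library 7 (adjusted p = 0.0466), with changes between 0.38 and 0.46. It was also lost when limma was fitted without an intensity trend (adjusted p = 0.105). Anln, which encodes the actin-binding scaffold anillin, was at 2122 and 2278 without and 2945 and 2794 with doxycycline (0.38 ± 0.07; limma, adjusted p = 0.0636). Ect2, the exchange factor that activates RhoA at the cleavage site, had a change of 0.30 ± 0.07, and the midzone kinesins Kif23 and Kif20a had changes of 0.27 ± 0.10 and 0.20 ± 0.09. A row whose accessions belong to Racgap1, the partner of Kif23, gave 3988 and 4645 without and 5106 and 5423 with doxycycline, a change of 0.29 ± 0.09.

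Chromosome structure genes had 6 members, with a median change of 0.31 and 0 calls over all genes. In all 6 both libraries with doxycycline lay above both without, against 26.7% of all genes. Smc4, a core subunit of condensin, was at 5071 and 5563 normalized counts without and 6457 and 6873 with doxycycline (0.33 ± 0.07; limma, adjusted p = 0.0863). Its partner Smc2 had a change of 0.14 ± 0.07, and the condensin I subunit genes Ncaph and Ncapg had changes of 0.31 ± 0.10 and 0.31 ± 0.10. Top2a, the topoisomerase that untangles sister chromatids, was at 14590.1 and 17395 without and 20008 and 20213 with doxycycline (0.34 ± 0.09; limma, adjusted p = 0.124). The 2 libraries with doxycycline were nearly level, and library 1 was the lowest, without which the change was 0.21. Mki67, which coats mitotic chromosomes and is widely used as a mark of dividing cells, was at 6434 and 7804 against 8075 and 8937, a change of 0.26 ± 0.11, or 0.12 without library 1 and 0.40 without library 7.

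**Figure D3:**
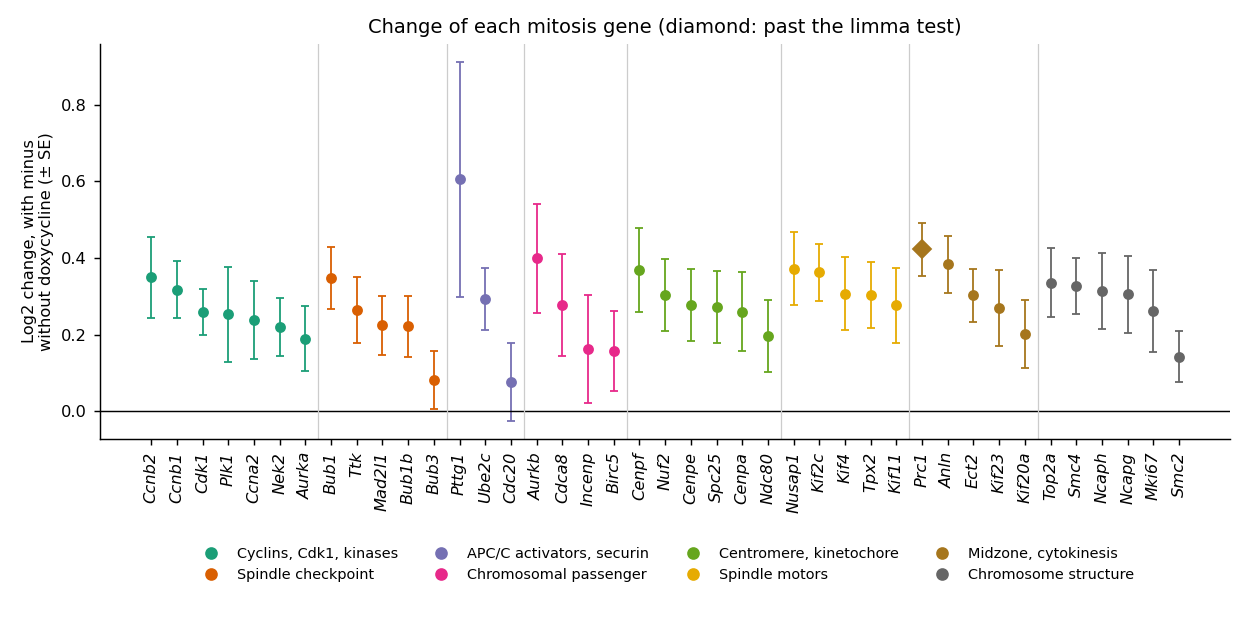
Log2 change (with minus without doxycycline, limma estimate ± SE, 2 libraries per group) of each of the 41 mitosis genes, coloured by role. All values lie above 0, from 0.08 for Cdc20 to 0.61 for Pttg1 (0.19 without library 1), and the diamond marks Prc1, the gene past the test.

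Levels between genes can be compared only per length, here as normalized counts per kilobase of the longest GENCODE transcript that matches the row's accessions. Without doxycycline the means ran from 270.1 per kilobase for Cenpf and 284 for Pttg1 to 2538 for Cdc20, 3063 for Top2a and 3692 for Ube2c. With doxycycline the same 5 genes stood at 347, 423, 2683, 3852 and 4530 per kilobase. Pttg1 had the lowest count of the 41 genes, and 1 read was worth 0.882 to 1.18 normalized counts, so its estimated reads were 382 in library 1 and at least 488 in the others. Counting error (SD) was 3.24% to 5.12% for that gene and 0.661% to 0.786% for Top2a, which had the most reads.

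The libraries also differed within groups, along the numbers in their column names. In 37 of the 41 genes library 7 lay above library 1 and library 8 above library 2, which held for 30.9% of all genes, with median differences of 0.17 and 0.12. Within the neighbouring numbers all 41 genes were higher in library 2 than in 1 and in library 8 than in 7, against 37.1% of all genes that were higher in both. The median difference was 0.32 between libraries 2 and 1 and 0.26 between 8 and 7. For Prc1 these differences were 0.43 and 0.42, for Top2a 0.46 and 0.22, for Aurkb 0.34 and 0.46, and for Pttg1 0.75 and 0.46. No label says what the numbers mean.

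**Figure D4:**
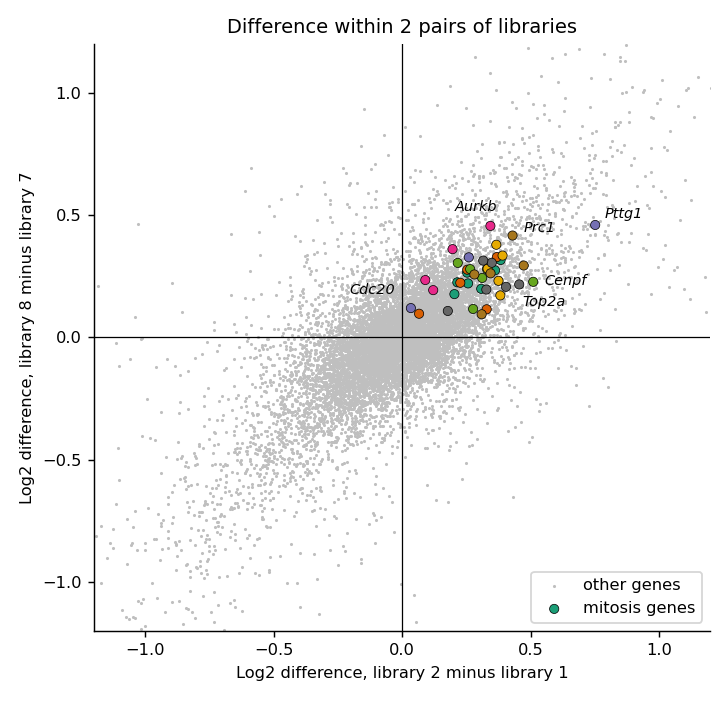
Log2 difference of library 8 minus library 7 (vertical) against library 2 minus library 1 (horizontal), for the 41 mitosis genes (coloured by role) and all other genes in grey, with 138 other genes outside the plotted range of 1.2. All 41 mitosis genes lie above 0 on both axes.

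Marker lists of the cell types that the cultures could hold differed between groups or along the library numbers, and no listed marker was at 0. Pan-neuronal genes, 17 of 17 listed, summed to 190185 and 167840 normalized counts without doxycycline and to 96036 and 77330 with it. All 17 had a change below 0, with a median of -0.86, and 13 passed the limma test as lower, against 1.79% of all genes. Among the 13 was Nefm, a neurofilament gene (-1.45 ± 0.10; limma, adjusted p = 0.00832). The 9 listed among 10 motor neuron genes summed to 15082 and 14274 without and 6379 and 5520 with doxycycline. Of these 8 passed the limma test as lower. Slc18a3, the vesicular acetylcholine transporter gene, is an example (-1.63 ± 0.08; limma, adjusted p = 0.00661). Lhx3, the remaining motor neuron gene, went the other way without passing (0.55 ± 0.17; limma, adjusted p = 0.155), and its groups did not overlap. Of 20 listed neural progenitor genes among 21, 16 had a change above 0 and the median was 0.31. Slc1a3, a glutamate transporter gene of radial glia, rose by 0.52 ± 0.08 (limma, adjusted p = 0.0413), Nkx2-2, a factor of the most ventral progenitors, rose by 2.78 ± 0.34 and Irx3, a factor of intermediate progenitors, fell by 0.55 ± 0.09. That list summed to 57738 and 59537 without and 61532 and 66799 with doxycycline. Sums of the endoderm and mesoderm markers, 15 listed of 20, followed the library numbers instead. They were 375820 in library 1 and 281361 in library 2 against 731435 in library 7 and 668026 in library 8. A few genes with high counts dominate these sums. Over the 15 genes the median difference was 0.70 for library 7 minus 1 (14 above 0) and 0.98 for library 8 minus 2 (12 above 0). Of these 15 genes 4 had a change above 0 and 11 below, with a median of -0.23, 1 call higher and 0 lower, and 2 higher and 2 lower at an unadjusted p under 0.05. Apoe, a lipoprotein gene, rose by 0.54 ± 0.08 (limma, adjusted p = 0.0405), while the endothelial genes Cdh5 (-0.72 ± 0.15) and Kdr (-0.85 ± 0.21) did not pass (limma, adjusted p = 0.0789 and 0.106). The pluripotency list (8 listed of 11) had 0 calls and 0 unadjusted p under 0.05, with sums of 6062 and 6299 without and 5398 and 5706 with doxycycline. These sums do not show how its genes differed along the library numbers. The median difference was -0.49 for library 7 minus 1 and -0.70 for library 8 minus 2, with 3 of the 8 genes above 0 in each. The part of these cell types in the differences of the mitosis genes was not tested.

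Other genes of cell division were read from lists that share no gene with the 41. Of 26 listed mitotic regulators 22 had a change above 0, with a median of 0.22, 0 calls and 11 higher at an unadjusted p under 0.05. Melk (0.34 ± 0.07) and Pbk (0.42 ± 0.09), kinases found mainly in dividing cells, had the smallest p. Mybl2, which encodes B-Myb, had a change of -0.00227 ± 0.23 and overlapping groups. The MuvB genes Lin9, Lin54, Lin52 and Lin37 had changes of 0.04 ± 0.10, 0.01 ± 0.11, -0.09 ± 0.15 and -0.18 ± 0.09. Of 34 further kinetochore and checkpoint genes 28 were above 0, with a median of 0.20, 8 higher and 1 lower at an unadjusted p under 0.05 and 0 calls. Casc5, which encodes the kinetochore scaffold Knl1, had a change of 0.46 ± 0.08 (limma, adjusted p = 0.0563) and Cenpq, a subunit of the constitutive centromere complex, one of 0.49 ± 0.10. Further spindle and cytokinesis genes, 35 listed, had a median of 0.21, 32 values above 0, 12 higher at an unadjusted p under 0.05 and 0 calls, with Spag5 (0.33 ± 0.07) and Hmmr (0.43 ± 0.10), both spindle proteins, in front. The 17 other condensin and cohesin genes had a median of 0.10, 17 values above 0, 4 higher at an unadjusted p under 0.05 and 0 calls. Their smallest p values belonged to Sgol2 (0.40 ± 0.09) and Sgol1 (0.37 ± 0.09), the shugoshins that protect cohesin at centromeres.

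The subunits of the APC/C and its direct regulators, listed together with the separase gene Espl1 as 17 genes, had a median of 0.00369, 9 values above 0 and 8 below. None passed (0 calls, with 0 higher and 1 lower at an unadjusted p under 0.05), and the smallest p values belonged to Anapc16 (-0.25 ± 0.08) and Anapc5 (-0.14 ± 0.06). The 43 DNA replication genes, which act in S phase, had a median of 0.15, with 42 values above 0, 9 higher at an unadjusted p under 0.05 and 0 calls. Dbf4, the activating subunit of the Cdc7 kinase, had a change of 0.36 ± 0.07 and Rpa3, a subunit of the single-strand binding protein, one of 0.39 ± 0.08. The difference between the lists was not tested.

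**Figure D5:**
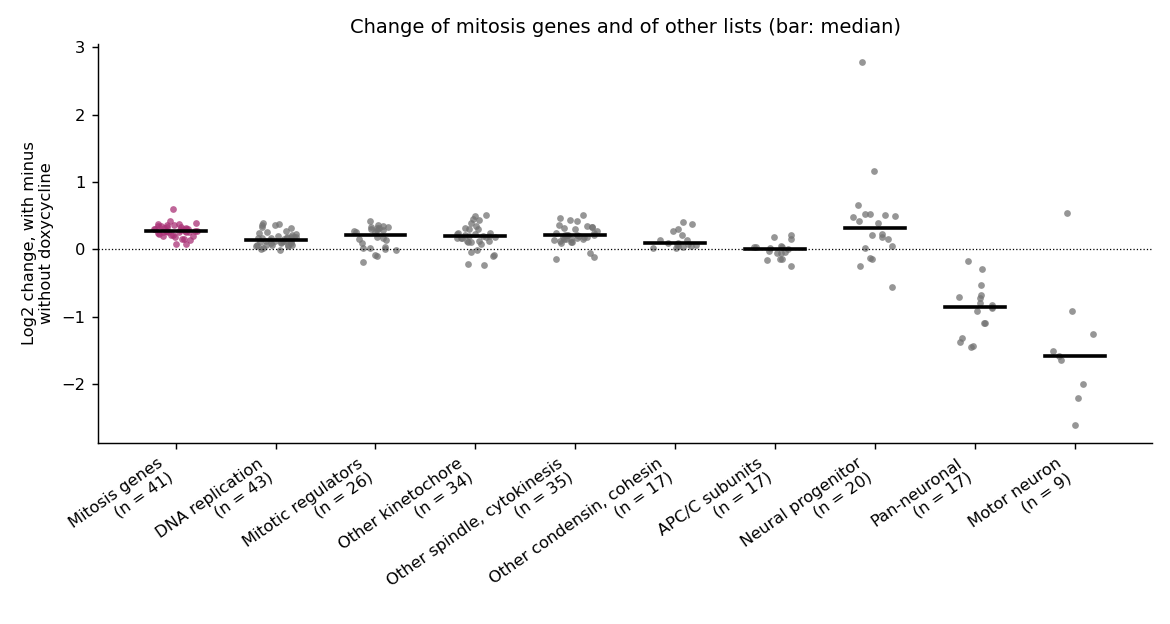
Log2 change (with minus without doxycycline) of each gene in the list of 41 mitosis genes and in 9 other lists, with a bar at each median. The mitosis genes cluster around 0.28, the list labelled APC/C subunits around 0.00369, and pan-neuronal and motor neuron genes around -0.86 and -1.57. The APC/C list also holds regulators and the separase gene.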

How the data were processed

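The authors deposited a signal per gene and library, a normalized read count with 2 decimals, which the values show to be gene reads over a factor common to each library. Per the submitters' processing notes, CASAVA, TopHat2, HTSeq, DESeq and the build mm9 were involved, without versions, roles or settings, and the strand setting of the counting was not in them. Columns were given a group by the initials of the treatment label in their names, and were not matched to single samples. Sums per library were 26449555 to 27047458 normalized counts, or an estimated 22433889 to 30234869 reads. These reads come from a step per library estimated here, of which 100.0% of values under 300 were whole multiples within 0.1 read. A stricter rule for recovering whole reads was not met, so no count model was fitted.

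The analysis used log2(normalized count + 1) and rows with a mean of at least 10 (the lowest was 40.1, so no row was removed), in limma 3.58.1 (R 4.3.3) with an intensity trend, two-sided, over 11747 rows. Degrees of freedom were 2 residual and 3.83 prior. The p-values rest on the spread of these libraries alone, and that spread may be technical. With 2 libraries per group the smallest p of an exact permutation test is 0.333. The limma script was checked on simulated data. The gene set, the 13 other lists and the rules were chosen with earlier results of these data known. The rule for named genes gives library values for the 2 genes of each role with the smallest p, the largest and smallest change and any gene past the test, and in other lists the genes past the test or the 2 with the smallest p. Nek2, Plk1, Bub3, Mki67 and the genes given by change alone are listed members outside that rule, and their examples were chosen after their values were seen. Genes of the other lists outside that rule are Spc24, Lhx3, Cdh5, Kdr, Mybl2, Lin9, Lin37, Lin52, Lin54, Cdkn1a, Cdkn1b, Cdkn1c, Gadd45g and Btg2. They were also chosen after their values were seen. Of lists with several genes past the test examples were named. Of 280 genes in the other lists 265 have a row, some by accession through a RefSeq table on GRCm38. The switched-on gene is not reported here. Alternatives were pseudocounts of 0.5 and 5, other filters, TMM-type factors, quantile normalization, no trend, robust empirical Bayes, a replicate block and each library left out. Python 3.11.15, pandas 2.3.3, numpy 2.4.6 and matplotlib 3.10.9 were used.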

Additional observations from a re-analysis of the deposited data

How the results depend on the processing

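Pseudocounts of 0.5 and 5, no filter, a row mean of at least 50, TMM-type factors and quantile normalization left 1 mitosis gene called, all 41 above 0 and the median between 0.28 and 0.32. Of all genes 50.1% to 50.6% were above 0, but 53.6% after quantile normalization. At an unadjusted p under 0.05, 27 or 28 mitosis genes were higher (9.38% to 9.58% of all genes), and 32 after quantile normalization (10.9%). Without an intensity trend limma called 105 genes (27 higher, 78 lower) and 0 mitosis genes, with 22 of them higher at an unadjusted p under 0.05 (9.38% of all genes) and an adjusted p of 0.105 for Prc1. Robust empirical Bayes called 419 genes, 132 of them higher, and 2 mitosis genes, with Anln added. With each library left out in turn, limma called 44 to 494 genes (2 to 156 higher, 42 to 338 lower) and 0 to 4 mitosis genes, with 39 to 41 above 0 and medians of 0.20 to 0.38. At an unadjusted p under 0.05, 10 mitosis genes were higher without library 1 (5.04% of all genes), 35 without library 7 (9.23%), 30 without library 2 (7.1%) and 10 without library 8 (5.39%). The 4 were called without library 7, and the fewest genes overall without library 8. Each such fit has a group of 1 library, which is assumed to vary like the other group. Values below 0 were those of Cdc20 (-0.00127 without library 1, -0.044 without library 8) and Incenp (-0.023 without library 8, and 0.35 without library 2).

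The labels' replicate numbers are not in the column names. A replicate block by neighbouring column numbers (1 with 2, 7 with 8) called 3508 genes, 1636 higher (13.9% of all) and 1872 lower, and 37 of the 41 mitosis genes, all higher. Deviations from the group means of the libraries paired this way correlated across genes at r = 0.63, a description over genes, which are not independent. With 2 pairs and no label that pairs them, the pairing rests only on neighbouring column numbers.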

Other observations

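Genes of the G1 to S transition and of cell cycle exit had changes in both directions. Of 15 listed G1 and S genes 11 had a change above 0, with a median of 0.10, 0 calls in limma and 3 higher and 1 lower at an unadjusted p under 0.05. E2f5 (0.30 ± 0.07) and Ccnd3, which encodes cyclin D3 (0.29 ± 0.09), had the smallest p. Of 9 listed exit genes 5 had a change above 0 and 4 below, with a median of 0.0155. In limma 0 were called higher and 1 lower, with 0 higher and 3 lower at an unadjusted p under 0.05. Cend1, a gene of neuronal cell cycle exit, was the gene called. It fell from 619 and 584 normalized counts to 318 and 329, by 0.89 ± 0.10 (limma, adjusted p = 0.0229). The inhibitor genes Cdkn1c (-0.48 ± 0.16) and Cdkn1b (-0.25 ± 0.08) did not pass. For Cdkn1a the change was 0.19 ± 0.11, for Gadd45g 0.51 ± 0.21 and for Btg2 0.24 ± 0.11, none of which passed.

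Changes of mitosis genes with and without a motif covered overlapping ranges, from 0.08 to 0.42 with a CHR and from 0.16 to 0.61 without. The ranges for the CCAAT box were the same. The median change was 0.27 in the 26 genes with a CHR and 0.30 in the 9 with none in the window, and 0.27 in the 26 with a CCAAT box against 0.31 in the 9 without, with no test made. Pttg1, with the largest change over all 4 libraries (0.19 without library 1), had neither motif in its window, and Cdc20, with the smallest, had both. Both genes were picked by their values, and a link between motif and change was not tested.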
